A study of Mus musculus with 20 samples.

Results

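The genes described here encode the voltage-gated sodium and calcium channels, the hyperpolarisation-activated HCN channels, the sodium leak channel Nalcn and the Trpc and Trpm families of transient receptor potential channels, with the auxiliary subunits of the sodium and calcium channels. They were chosen by symbol alone: 58 of the 19269 genes in the count table matched, and 54 of these are described. Of the 54, 35 encode pore-forming subunits: 8 sodium channel alpha subunits, 10 calcium channel alpha1 subunits, 3 HCN channels, Nalcn, 6 Trpc and 7 Trpm channels. The other 19 encode auxiliary subunits: 3 sodium channel beta, 4 calcium channel alpha2delta, 4 calcium channel beta and 8 calcium channel gamma subunits. The classes differ in size. The longest annotated transcript had a median of 6692 nt for the pore-forming genes and of 3705 nt for the auxiliary genes, and the coding sequence a median of 5523 nt against 981 nt. Scn2a, a main sodium channel gene of the forebrain, stands in the table under its older symbol Scn2a1 and so fell outside the choice.

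Tissue was punched from the preoptic area of female mice at day 21 (young) or at days 70 to 150 in diestrus (adult), with 3 to 4 mice pooled per sample. Ribosomes carrying a GFP-tagged L10a protein were pulled down to give an immunoprecipitate (IP), and what remained was the depleted supernatant. There were 20 libraries from 10 pools. The 5 pools labelled GFP-negative each gave an IP and a supernatant: young pools 1 and 2 were wild type, young pool 3 carried only the Floxed L10a-GFP allele, and adult pools 1 and 2 carried GnRH CRE alone, so that age and genotype changed together. An adult pool of the cross GnRH CRE x Floxed L10a-GFP, in which the tag is restricted to neurons with GnRH-driven Cre, gave an IP and a supernatant without a replicate. Of the same cross came 4 pools from an earlier series, called prior pools here, 2 young and 2 adult; only their supernatants were used, each sequenced in a first and again in a second set from the same RNA. The other 6 pools are called new pools. Pools were taken to hold separate mice, and in pools of tissue, fewer cells of a type and less RNA per cell cannot be told apart.

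Sodium channel alpha subunits carry the upstroke of the action potential, and calcium channel alpha1 subunits admit calcium for transmitter and hormone release, for low-threshold bursts and for signals to the nucleus. Beta and alpha2delta subunits bring these pores to the membrane and set their kinetics, while the gamma family includes the regulators of AMPA receptors known as TARPs. HCN channels pass a depolarising pacemaker current when the membrane hyperpolarises, Nalcn carries a resting sodium leak, and Trpc and Trpm channels are cation channels gated by receptors, lipids, calcium or temperature. In GnRH neurons, pacemaker, T-type calcium and Trpc currents are known contributors to burst firing and to the response to kisspeptin.

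Library totals ran from 27.7 to 50.5 M counts, so that 3 counts, used as a floor, lay between 0.0594 and 0.108 CPM (counts per M). CPM values are scaled by trimmed-mean factors over all 20 libraries. The 6 neuronal markers followed were all above 1 CPM on average, with a summed level of 4499 to 5029 CPM in the negative supernatants, and the same was true of 6 markers of the preoptic area, among them Gal, Esr1 and Gnrh1. No marker of any list was at 0 in every library. Of the 54 channel genes, 45 had a mean of at least 1 CPM over the 20 libraries, 28 pore-forming and 17 auxiliary. The 9 below it were Cacna1f, Cacng1, Cacng6, Scn10a, Scn11a, Scn4a, Trpc6, Trpm5 and Trpm8. Among them are a sodium channel of muscle (Scn4a), Scn10a and Scn11a of pain-sensing neurons, a retinal calcium channel and the cold receptor. Scn4a and Trpm5 never exceeded 3 counts. Exons of 5 genes overlap an opposite-strand gene that is also in the table (Cacna1d, Cacna1h, Hcn3, Scn9a and Trpm5), and since the strand setting of the counting is not given, their reads cannot be told apart from those of the neighbour.

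Auxiliary subunits of the calcium and sodium channels were among the most abundant of these transcripts per unit of length. Over the 14 supernatant libraries, 4 of which repeat RNA of another 4, Cacnb3, a calcium channel beta subunit, stood at 50.2 ± 7.45 CPM per kb of transcript (SD, n = 14), with a range of 39.8 to 65.1 CPM per kb. Hcn2 was the pore-forming gene with the highest level per kb, 31.2 ± 8.58 CPM per kb, a range of 18.1 to 46.7 that overlapped that of Cacnb3 and of Cacnb1 (23.0 ± 5.40 CPM per kb). Other auxiliary genes above 10 CPM per kb were Scn2b at 18.4 ± 3.16, Cacng3 at 16.7 ± 1.83, Cacnb4 at 16.6 ± 3.22, Scn3b at 11.5 ± 2.64 and Cacnb2 at 10.1 ± 1.69 CPM per kb, and their ranges overlapped along this order. Of the other pore-forming genes described, none reached that level.

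Among the alpha subunits of sodium channels, Scn1a, best known from inhibitory interneurons, had 5.15 ± 1.06 CPM per kb and Scn8a, the channel of the axon initial segment and nodes, 3.39 ± 0.629. Scn3a (2.4 ± 0.631) and Scn9a (1.84 ± 0.428) came next, and Scn7a was lowest of those at 1 CPM or more, 0.154 ± 0.0826 CPM per kb. Scn2a1, outside the choice, had 5.83 ± 1.02 CPM per kb, a higher mean than Scn1a with an overlapping range. The calcium alpha1 genes at 1 CPM or more ran from 0.305 to 2.16 CPM per kb and overlapped the sodium pores. Cacna1a, the P/Q-type pore, had 2.16 ± 0.457 CPM per kb and Cacna1b, the N-type pore, 1.47 ± 0.923, with a range of 0.280 to 2.91, the widest of its family. The T-type genes Cacna1g, Cacna1h and Cacna1i lay at 1.11 ± 0.329, 1.11 ± 0.423 and 0.776 ± 0.212, the L-type genes Cacna1d and Cacna1c at 0.829 ± 0.266 and 0.305 ± 0.113 CPM per kb.

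Nalcn stood at 4.64 ± 1.11 CPM per kb, close to Trpc7 (5.43 ± 0.723) and Hcn3 (5.71 ± 1.72), with overlapping ranges. Trpc4 and Trpc5, the receptor-operated channels studied in kisspeptin responses, had 1.59 ± 0.404 and 1.87 ± 0.548 CPM per kb, and of the Trpm genes the oxidant-gated Trpm2 (2.70 ± 0.764), the channel-kinase Trpm7 (2.34 ± 0.620) and the calcium-activated Trpm4 (2.22 ± 0.367) were highest. In the plot of levels by role, the means of the 3 sodium beta and 4 calcium beta genes lie above every plotted pore of their channels, whereas Cacna2d4 (0.393), Cacng7 (0.589) and Cacng8 (0.858 CPM per kb) lie within the range of the alpha1 genes. Not divided by length, Scn1a (43.2 CPM) and Scn8a (38.75 CPM) had higher means than Scn4b (31.0 CPM). The other beta genes stayed above the plotted pores of their channels. Scn2a1, which is not plotted, had a mean of 52.1 CPM, above Scn3b (47.7 CPM).

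**Figure D1:**
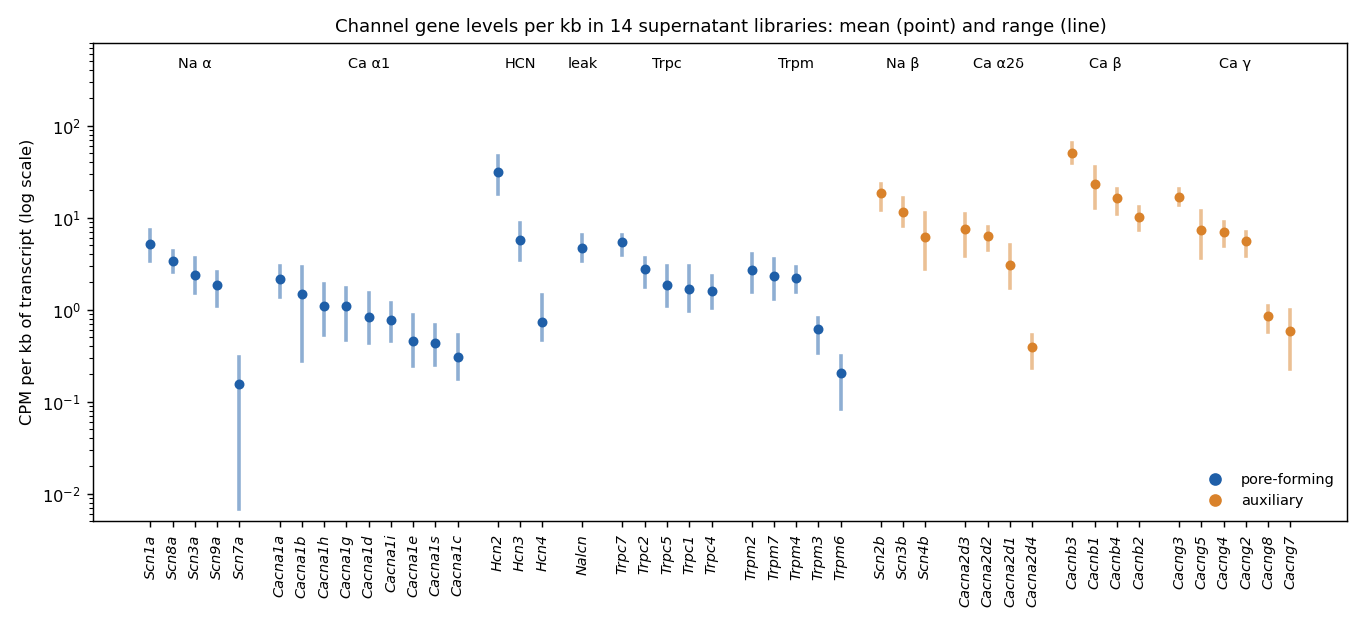
Mean CPM per kb of the longest transcript (point) and lowest to highest library (line) of 45 channel genes in 14 supernatant libraries, on a log axis, ordered by level within each role. Cacnb3 (50.2 CPM per kb) is highest of the 45, and Hcn2 (31.2) is the highest pore-forming gene.

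Age was compared in 10 second-set supernatants, 1 per pool, 5 young and 5 adult, with pool origin (new or prior) as a term in edgeR's quasi-likelihood fit over all genes. Of 47 channel genes tested, 2 were higher in the adult and 0 lower at an adjusted p under 0.05, against 4.16% of all 15537 tested genes higher and 5.6% lower. They were Hcn2, a pacemaker channel gene, and Scn4b, the sodium channel beta subunit linked with resurgent current. At an unadjusted p under 0.05 there were 8 channel genes in either direction, against 25.1% of all genes, and DESeq2 also called 2 higher and 0 lower. The median log2 change was 0.10 over the 47 channel genes, beside 0.00 over all genes tested.

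Because Scn4b and Hcn2 separated the ages without overlap, as given next, their RefSeq promoters are shown, 250 bases before the RefSeq start on the gene's own strand, build GRCm38.p6. The GENCODE annotation used for lengths starts Hcn2 at the same base but Scn4b at 45138395, inside its window, so that the CCAAT match lies downstream of that start. Capitals mark the motif matches searched on both strands: the CCAAT box (CCAAT) in Scn4b, chr9:45138374-45138623, plus strand, and the GC box (GGGCGG) in Hcn2, chr10:79716384-79716633, plus strand.
Scn4b: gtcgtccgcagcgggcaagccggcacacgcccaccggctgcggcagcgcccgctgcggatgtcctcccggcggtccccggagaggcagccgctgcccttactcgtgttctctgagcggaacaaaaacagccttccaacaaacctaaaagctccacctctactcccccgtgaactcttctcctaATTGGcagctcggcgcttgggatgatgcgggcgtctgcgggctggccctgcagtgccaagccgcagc
Hcn2: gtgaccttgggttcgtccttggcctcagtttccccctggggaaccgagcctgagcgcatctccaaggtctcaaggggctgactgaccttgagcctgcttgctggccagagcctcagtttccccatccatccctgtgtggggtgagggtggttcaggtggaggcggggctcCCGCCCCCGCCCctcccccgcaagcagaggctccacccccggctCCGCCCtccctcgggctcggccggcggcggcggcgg

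The Scn4b window had a GC content of 66.0% with 23 CpG pairs and held 1 CCAAT box, read on the opposite strand. The Hcn2 window had 70.4% GC with 16 CpG pairs and held 3 GC boxes, also on the opposite strand. Neither held a TATA box (TATAAA) or a palindromic estrogen response element. Among 32841 mouse promoters of the same length the median was 52.4% GC and 6 CpG pairs; 33.9% held a CCAAT box, 32.8% a GC box, 12.4% a TATA box and 0.0639% the estrogen element. Of 44 channel genes with a promoter in the table, 12, 20, 4 and 0 held them in that order. A match is only a run of letters, and the absence of a match says nothing about a factor.

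Hcn2 was at 81.9, 66.6 and 65.0 CPM in the young negative pools and at 58.0 and 91.2 in the young prior pools. In the adult it was at 102.5 and 102.5 CPM in the negative pools, 100 in the GFP-positive pool and 122.2 and 107.2 in the prior pools. Every adult supernatant lay above every young one, and the log2 difference was 0.56 (SE 0.11, adjusted p = 0.00881, edgeR).

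Scn4b was at 15.6, 31.9 and 25.4 CPM in the young negative pools and at 13.7 and 31.1 in the young prior pools. In the adult it was at 50.4 and 55.7 CPM in the negative pools, 34.3 in the GFP-positive pool and 38.9 and 33.9 in the prior pools. The age groups again did not overlap, although the highest young and the lowest adult library were close, and the log2 difference was 0.84 (SE 0.23, adjusted p = 0.0345, edgeR). The share of all genes whose ages did not overlap is not given here.

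Hcn3 (log2 -0.16, SE 0.13) and Hcn4 (log2 0.09, SE 0.20) did not pass. Within each origin, every adult library was above every young one for Hcn2 and Scn4b, with no call in the smaller fits. In the 5 negative pools alone, where age and genotype cannot be told apart, the log2 differences were 0.54 for Hcn2 (adjusted p = 0.0753) and 1.14 for Scn4b (adjusted p = 0.0685). In the 4 prior pools, of 1 genotype, they were 0.62 and 0.70 (adjusted p = 0.365 and 0.5, all edgeR). Without a term for origin only Hcn2 passed. Leaving out 1 library at a time gave 1 to 3 channel genes higher in the adult: 1, Hcn2, without young negative supernatant 1, adult negative supernatant 1 or 2, young prior pool 1 or adult prior pool 3, where Scn4b had an adjusted p of 0.0571 to 0.0912 (edgeR).

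Some markers of other cell types differed with age in these supernatants. Markers of oligodendrocyte precursors (5 of 5 above 1 CPM) summed to 169 to 218 CPM in the young and 109 to 146 CPM in the adult. Of these, Gpr17 (30.7 to 45.3 against 8.73 to 14.35 CPM) and Olig2 (59.3 to 72.7 against 34.8 to 48.05 CPM) did not overlap. Pdgfra, Cspg4 and Sox10 overlapped. The sum of mature oligodendrocyte markers overlapped, but Mobp (408 to 815 against 152 to 322 CPM) and Cnp (1007 to 1447 against 521 to 893 CPM) did not. Skeletal muscle markers (2 of 5 above 1 CPM) summed to 21.8 to 36.5 CPM against 15.4 to 18.9 CPM, most of it Acta1, and the other members overlapped. The summed neuronal markers overlapped, 4719 to 5524 CPM against 4499 to 5567 CPM, but Snap25 was the largest part of the sum. Of its other members Tubb3 was at 601 to 739 CPM in the young and 398 to 514 CPM in the adult, and Stmn2 at 802 to 988 CPM against 556 to 681 CPM, both without overlap. The part of these in the age differences was not tested.

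Among the calcium channel genes, 0 of 9 alpha1 genes tested passed. The values nearest to a call were Cacna1e, the R-type pore (log2 0.54, SE 0.22, adjusted p = 0.142), and the T-type Cacna1i (log2 0.48, SE 0.20, adjusted p = 0.158). The calcium beta and gamma genes tested had differences of -0.14 to 0.11, for example Cacnb3 at 0.03 (SE 0.07) and Cacnb4 at -0.01 (SE 0.09), and the 4 alpha2delta genes of 0.04 to 0.31; 0 of these passed. Trpc6, a low gene at 0.268 to 0.642 CPM in the young and 0.623 to 1.46 CPM in the adult, had a log2 difference of 1.01 (SE 0.36, adjusted p = 0.0987). The 5 sodium alpha genes at 1 CPM or more had differences of 0.11 to 0.57, Nalcn of 0.28, and Scn2b and Scn3b of -0.09 to 0.10. The Trpc genes at that level had 0.04 to 0.26 and the Trpm genes -0.41 to 0.37, and 0 of these passed.

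**Figure D2:**
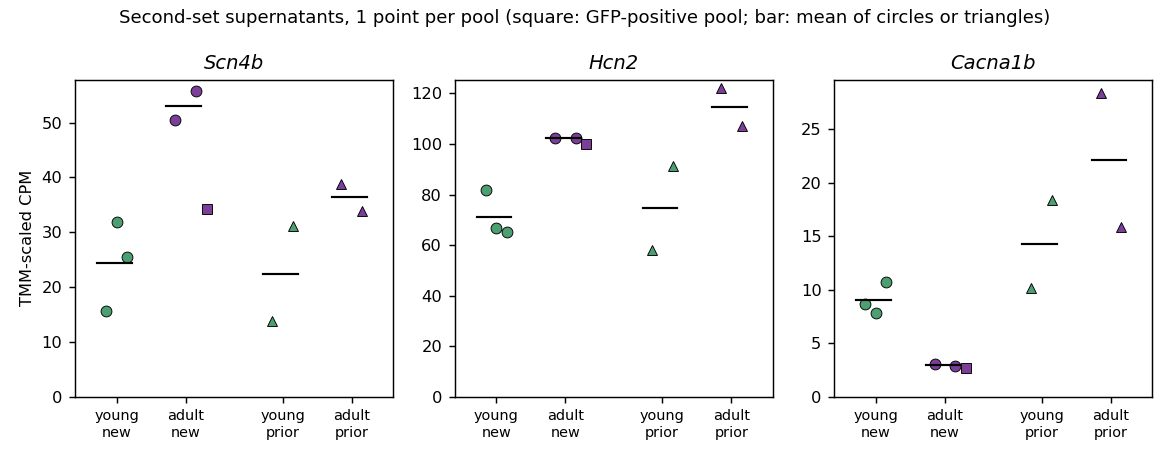
TMM-scaled CPM of Scn4b, Hcn2 and Cacna1b in 10 second-set supernatants, 1 point per pool, by age and by new or prior origin; the square is the GFP-positive pool and the bar the mean of the circles or triangles. Adult points lie above young ones within each origin for Scn4b and Hcn2, whereas Cacna1b is lowest in the adult new pools (2.73 to 3.07 CPM).

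Cacna1b, which encodes the N-type pore of presynaptic terminals, was singled out after its values were seen. The ages did not overlap in the new pools and overlapped in the second-set libraries of the prior pools. In the first-set libraries of the prior pools, both adult values lay above both young ones. In the new young supernatants it was at 8.63, 7.80 and 10.8 CPM, and in the new adult ones at 3.07, 2.88 and, in the GFP-positive pool, 2.73 CPM. The prior pools gave 10.2 and 18.3 CPM in the young and 28.3 and 15.9 CPM in the adult in the second set, and 20.3, 20.5, 28.2 and 22.8 CPM in the first. The adult new pools were thus the lowest of all, and their counts were still 75 to 156 per library.

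Pooled over origins, the log2 age difference of Cacna1b was -0.70 (SE 0.38, adjusted p = 0.282, edgeR). In the 5 negative pools alone it was -1.59 (SE 0.26, adjusted p = 0.0235), and in the 4 prior pools 0.63 (SE 0.35, adjusted p = 0.546). A test of whether the age difference differed between the new pools, GFP-positive pool included, and the prior pools gave log2 -2.27 (SE 0.41). It was added after the values were seen, with an adjusted p of 0.423 in edgeR and of 0.000404 in DESeq2. Over the edgeR settings that kept all 10 pools the adjusted p was 0.0607 to 0.423, with no call when 1 library was left out, and 0.00617% of 16206 genes were called by edgeR. In the IP libraries of the same new pools, Cacna1b was at 15.5, 5.11 and 24.7 CPM in the young, 4.08 and 2.57 CPM in the adult and 1.03 CPM in the GFP-positive pool.

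IP and supernatant were compared in the 5 negative pools, whose ribosomes carry no tag, so that the IP measures what is retained without a labelled target. Of 51 channel genes tested, 17 were higher in the IP and 1 lower, against 15.8% of 16361 tested genes higher and 16.2% lower. By role, 13 of the 32 pore-forming genes tested and 4 of the 19 auxiliary genes were higher. Without young negative supernatant 1, adult negative supernatant 1 or 2, or adult negative IP 1, 0 auxiliary genes and 10 to 13 pore-forming genes were called higher. In those fits 9.84% to 13.5% of all genes were higher. The median log2 ratio was 0.55 over the tested pore-forming genes and 0.21 over the auxiliary ones, beside -0.03 over all genes tested. Together the 54 genes took 0.161% to 0.178% of the counts in the negative IP libraries and 0.107% to 0.121% in the supernatants.

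Calcium alpha1 genes were among those furthest apart. Cacna1a was at 61.2, 68.8 and 30.8 CPM in the young and 38.1 and 53.3 CPM in the adult IP libraries, and at 11.8 to 20.7 CPM in the 5 supernatants. Cacna1d was at 34.3, 21.4 and 18.8 CPM in the young and 18.3 and 22.1 CPM in the adult IP libraries, and at 5.50 to 8.49 CPM in the supernatants. For both genes every IP library was above every supernatant, with log2 ratios of 1.61 (SE 0.25, adjusted p = 0.000875) and 1.63 (SE 0.24, adjusted p = 0.000524, both edgeR). The share of all genes whose fractions did not overlap is not given here, for these genes or those below.

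All 3 T-type genes were higher in the IP, Cacna1i at log2 1.43, Cacna1h at 1.18 and Cacna1g at 1.04, with no overlap between fractions. Cacna1c had a log2 ratio of 1.00 (SE 0.39, adjusted p = 0.0787) without overlap, and Cacna1b (0.41), Cacna1e (0.56) and the low Cacna1s (-0.64) overlapped.

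Of the sodium channel pores, Scn8a was at 73.9, 104.8 and 119.3 CPM in the young and 62.5 and 105.9 CPM in the adult IP libraries, against 29.2 to 42.0 CPM in the supernatants. The log2 ratio was 1.38 (SE 0.20, adjusted p = 0.000518, edgeR) and the fractions did not overlap. Scn1a was also without overlap, 74.7 to 112.4 CPM against 34.4 to 47.9 CPM, at log2 0.95. Scn3a and Scn9a were higher in the IP in each of the 5 pools, but their fractions overlapped and they did not pass.

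Hcn4, the main pacemaker channel gene of the heart, was at 18.4, 11.0 and 11.8 CPM in the young and 20.7 and 6.92 CPM in the adult IP libraries, against 3.06 to 4.66 CPM, a log2 ratio of 1.86 (SE 0.37, adjusted p = 0.00334, edgeR). Hcn2 had a log2 ratio of 0.69 (SE 0.13) without overlap, while Hcn3 at 0.75 (SE 0.30, adjusted p = 0.0813) overlapped. Nalcn was without overlap too, 43.2 to 58.6 CPM against 23.9 to 34.4 CPM, at log2 0.84 (SE 0.13, adjusted p = 0.000772).

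Trpm7 (log2 1.07), Trpc5 (0.92) and Trpc7 (0.55) were higher in the IP, the first 2 without overlap. Others that did not pass were Trpc1 (-0.00), Trpc2 (-0.71), Trpc4 (0.14), Trpm2 (-0.23), Trpm3 (0.11), Trpm4 (-0.11) and Trpm6 (-0.86).

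Among auxiliary genes, Scn4b (log2 0.93, SE 0.28), Cacng4 (0.76, SE 0.22), Cacna2d1 (0.61, SE 0.20) and Scn3b (0.45, SE 0.13) were higher in the IP, of which only Cacna2d1, a target of gabapentinoid drugs, had fractions that did not overlap. Its IP values were 27.3, 29.7 and 34.1 CPM in the young and 45.7 and 23.2 CPM in the adult, against 18.7 to 22.9 CPM in the supernatants. Without adult negative IP 1 its log2 ratio went from 0.61 to 0.31 and it was not called.

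Cacnb3 (log2 0.07, SE 0.15), Cacnb4 (0.12, SE 0.15), Cacnb1 and Cacna2d2 overlapped as well. Cacnb2 did not overlap, at 41.0 to 59.7 CPM in the IP against 29.0 to 38.4 CPM, but 0 of 4 calcium beta genes passed. Scn2b overlapped, 53.6 to 99.9 CPM in the IP against 68.8 to 109.2 CPM. It was lower in the IP in each of the 5 pools and did not pass. The 1 gene lower in the IP was Scn11a, a sodium channel of pain-sensing neurons, which was at 0 counts in 4 of 5 IP libraries and at 0.0910 to 0.550 CPM in the supernatants, close to the floor. Its fitted ratio is no size of effect, and with the pool as a replicate block it was not called.

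**Figure D3:**
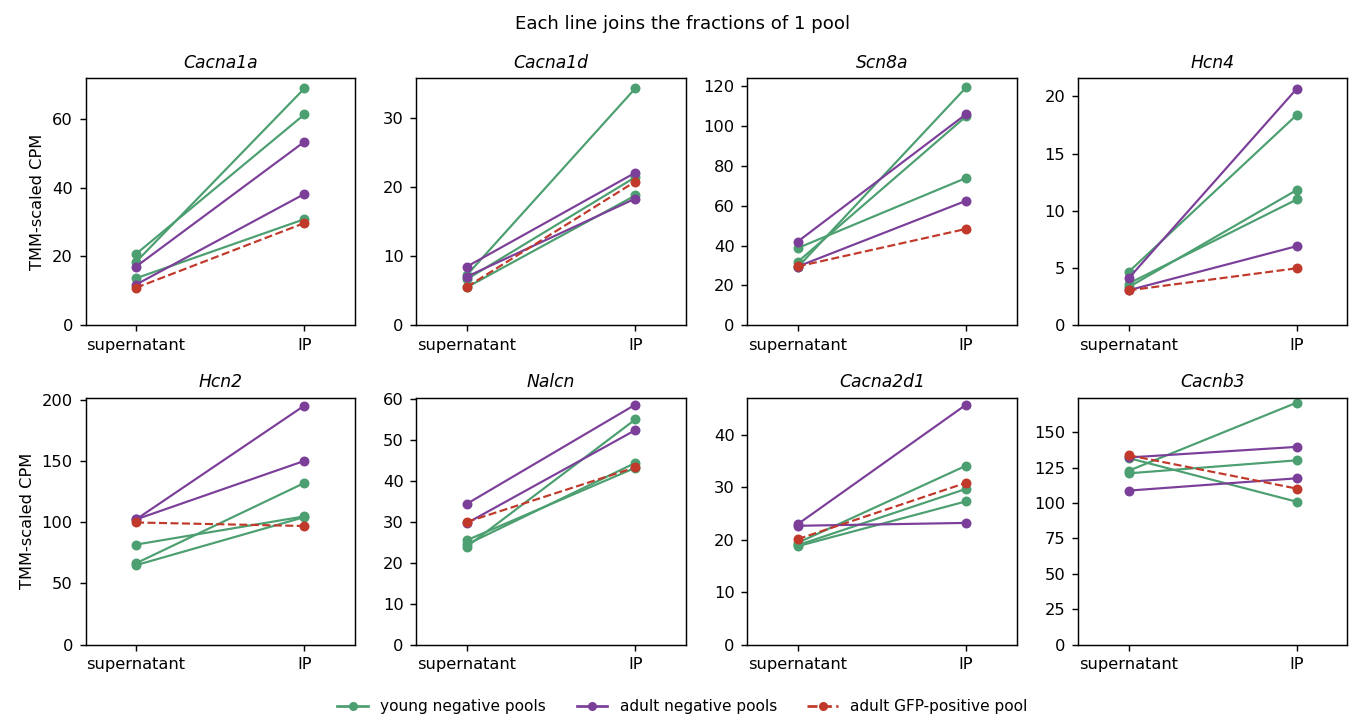
TMM-scaled CPM in the supernatant and in the IP, each line joining the fractions of 1 pool (green young negative, purple adult negative, dashed red adult GFP-positive), for 6 pore-forming and 2 auxiliary genes on linear axes from 0. In all 5 negative pools the IP lies above the supernatant for the 6 pore-forming genes and Cacna2d1, and in 4 of 5 for Cacnb3.

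Transcript length ran along with this contrast. Across the 45 genes at 1 CPM or more, the log2 IP ratio and transcript length had a Spearman rho of 0.494, and across all 13991 such genes 0.536; genes are not independent replicates and share the same libraries, so no p is given. With GC content the rho was -0.057 over the channel genes. Among all genes, the median log2 ratio went from -0.46 below 2000 nt through -0.02, 0.31 and 0.64 to 0.92 at 8000 nt and above, in steps of 2000 nt up to 8000. The channel genes in the same steps had medians of -1.39, 0.24, 0.44, 0.61 and 0.95 with 1, 12, 10, 9 and 13 genes.

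In the longest step, 62.9% of all genes were higher in the IP, as were 6 of the 13 channel genes. Single genes departed from the order of their class: the long auxiliary gene Cacnb4 (8225 nt) had a log2 ratio of 0.12, and the short pore-forming gene Hcn2 (3195 nt) one of 0.69, above the all-gene median of -0.02 at its length. In the step from 2000 to 4000 nt, 4 pore-forming genes had a median of 0.35 and 8 auxiliary genes one of 0.20.

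**Figure D4:**
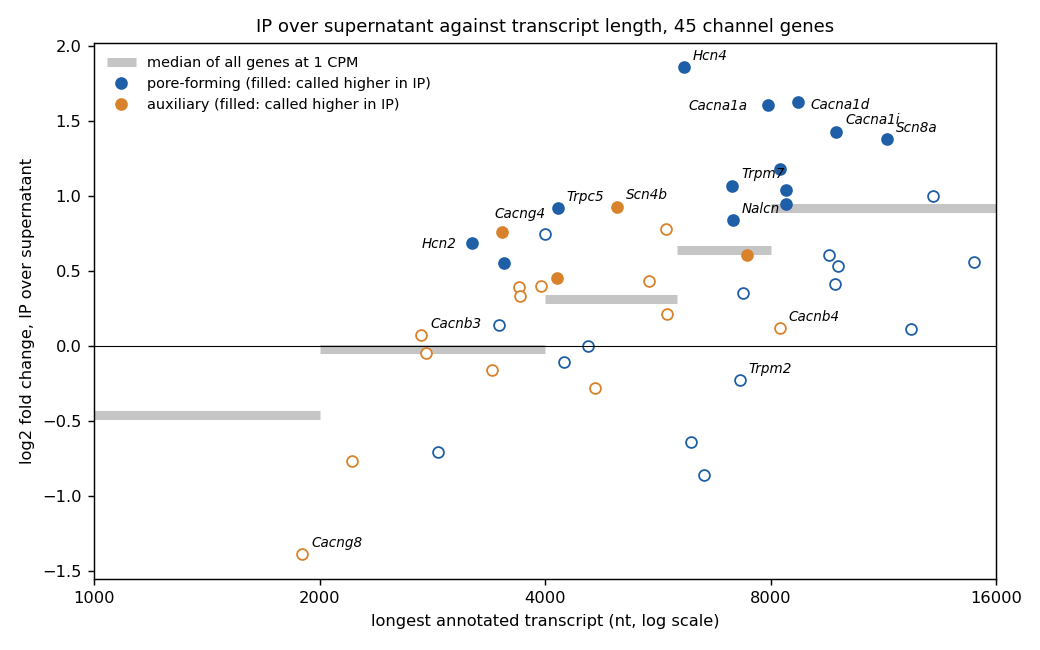
Log2 fold change of IP over supernatant in the 5 negative pools against the longest transcript (nt, log axis) for 45 channel genes; filled points passed the test, and grey bars are the median of all genes at 1 CPM or more in each length step. The channel genes of each class scatter around the grey bars, which run from -0.46 to 0.92.

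With the length trend of each library removed, the median of all genes moved from -0.03 to 0.19, and 9 channel genes were higher and 2 lower of 51, against 16.5% and 6.19% of all genes. Of the 17 genes called before, 8 kept the call: Cacna1a, Cacna1d, Hcn2, Hcn4, Trpc5, Trpc7, Cacng4 and Scn3b. The 9 that lost it were Cacna1g, Cacna1h, Cacna1i, Scn1a, Scn8a, Nalcn, Trpm7, Cacna2d1 and Scn4b. Cacnb2 then passed at 0.50 (adjusted p = 0.0477), while Trpm2 was lower at -0.73 (adjusted p = 0.0393, both edgeR). The median of the pore-forming genes at 1 CPM or more went from 0.65 to 0.30, and that of the auxiliary genes from 0.33 to 0.30. Over all tested in each class, the pore-forming median went from 0.55 to 0.01, and the auxiliary one was 0.21 in both fits.

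With each IP paired to its own supernatant by a replicate block on the pool, 17 channel genes were higher and 0 lower, and Cacna2d1 (adjusted p = 0.0617) and Trpc7 (adjusted p = 0.0647, edgeR) were no longer called. Leaving out 1 library at a time gave 10 to 18 higher, against 9.84% to 17.0% of all genes. The 10 came without adult negative supernatant 1 or without adult negative supernatant 2. Cacna1a, Cacna1d, Hcn2 and Hcn4 were called under all 18 settings tried. Neuronal markers summed to 3588 to 4323 CPM in the IP, below the 4499 to 5029 CPM of the supernatants, but the members differed: Syt1 was at 329 to 545 CPM in the IP against 242 to 322 CPM, and Rbfox3 was higher in the IP in 4 of 5 pools. Astrocyte markers (6 of 6 above 1 CPM) reached 352 to 1259 CPM against 435 to 558 CPM, and 352 to 627 CPM without young negative IP 1. Mature oligodendrocyte markers (6 of 6) overlapped, 2836 to 7558 CPM against 3269 to 6675 CPM, and the part of these in the channel ratios was not tested.

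Whether the IP ratio differed between the ages was tested as an interaction in the same 10 libraries. By edgeR, 0 channel genes and 0.0% of 16361 genes passed, with 1068 of all genes at an unadjusted p under 0.05; DESeq2 called 48 genes upward and 70 downward, 0 of them channel genes. Among the channel genes 7 had an unadjusted p under 0.05 in edgeR. Scn3b, a sodium channel beta subunit, had the lowest p among the channel genes (log2 -0.88, SE 0.25, adjusted p = 0.683). It was at 91.1, 75.3 and 67.9 CPM in the young IP libraries and at 43.1 and 40.5 CPM in the adult ones, which did not overlap, while the supernatants lay at 37.5 to 44.0 CPM at both ages.

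The repeat of the prior pools in a second sequencing set measured the same RNA again, and the labels call these libraries technical replicates. Of 48 channel genes tested with the pool as a term, 10 were higher in the second set and 9 lower, against 15.7% of 15573 genes higher and 16.7% lower. The genes that rose were Trpm7, Trpc5, Hcn4, Cacna1d, Cacna2d1, Trpm3, Cacnb4, Scn1a, Scn9a and Cacng2, at log2 0.31 to 0.78. Those that fell were Cacna1h, Trpc2, Cacnb1, Hcn2, Cacna1b, Cacnb3, Scn2b, Cacnb2 and Scn3b, at log2 -0.74 to -0.22.

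Cacna2d1 was at 12.8, 16.8, 22.5 and 20.5 CPM in the first set and at 22.7, 32.2, 37.6 and 30.3 CPM in the second for the same 4 pools in order. Each pool rose and the sets did not overlap (log2 0.76, SE 0.09, adjusted p = 1.51e-05, edgeR). Cacnb3 was at 178.1, 157.2, 168.8 and 157.9 CPM in the first set and at 131.9, 116.0, 131.8 and 131.1 CPM in the second. Each pool fell, again without overlap (log2 -0.39, adjusted p = 2.36e-05, edgeR).

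Hcn2, which was higher in the adult, fell between the sets by 0.44 on the log2 scale (SE 0.07). Its age difference used second-set libraries alone; with the first-set libraries of the prior pools in their place, Hcn2 kept a log2 difference of 0.52 (adjusted p = 0.000831) and Scn4b one of 0.98 (adjusted p = 0.0045, edgeR).

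Length and base composition were set against this change too. Across the 45 channel genes, the log2 change between sets had a rho of 0.404 with length and of -0.436 with GC content; across all genes the values were -0.006 and -0.502. Length and GC content were themselves related, with a rho of -0.419 among the channel genes and -0.269 among all genes. Within the auxiliary class the long Cacna2d1 and Cacnb4 rose while the short Cacnb1 and Cacnb3 fell, and within the pores the short Hcn2 and Trpc2 fell. Cacna1h, which is long, had the lowest value of the 19 called genes, -0.74. In the same RNA, astrocyte markers summed to 397 to 499 CPM in the first set and to 351 to 366 CPM in the second. Gfap, the largest part of that sum, was at 159.8 to 328.6 CPM in the first set and 115.8 to 202.6 CPM in the second. Aqp4 was at 10.9 to 19.7 CPM and 15.1 to 18.7 CPM. After removal of the length trend 8 were higher and 12 lower, against 13.0% and 18.9% of all genes. After removal of the GC trend, an alternative added after the data were seen, they were 9 and 11, against 10.6% and 15.8%.

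**Figure D5:**
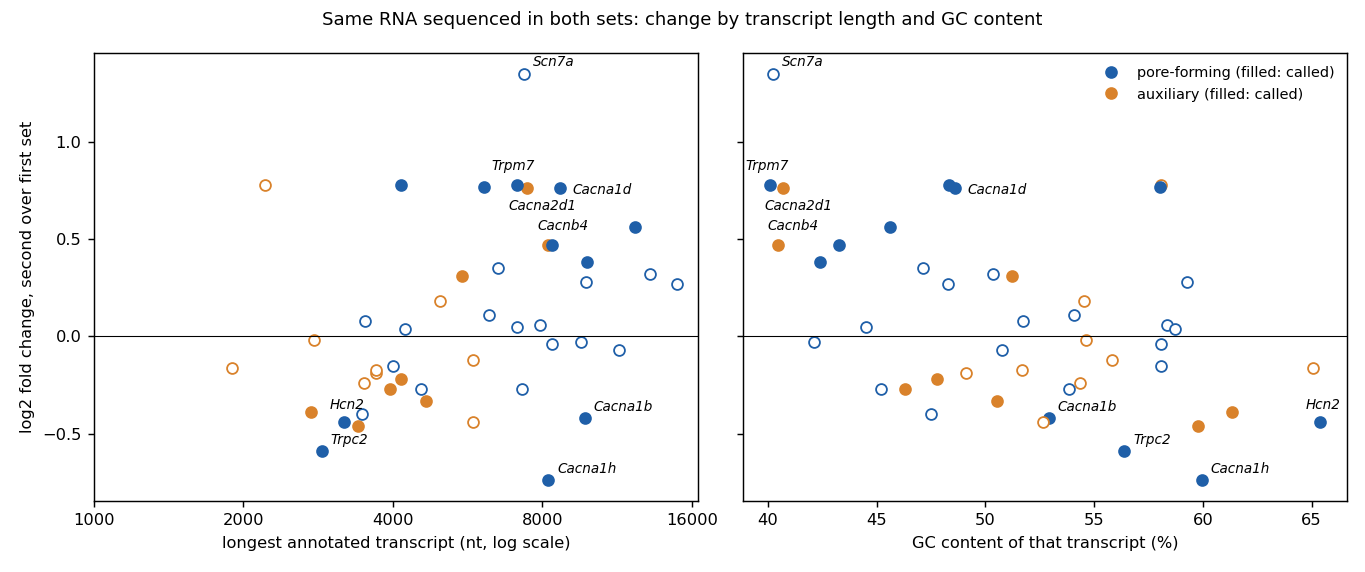
Log2 fold change of the second over the first sequencing set of the same RNA against transcript length (nt, log axis) and GC content (%) for 45 channel genes; filled points passed the test. Cacna2d1 and Cacnb4, both long auxiliary genes of low GC content, are at 0.76 and 0.47, and Hcn2 at -0.44.

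In the GFP-positive IP, Gnrh1 checked the pull-down: it was at 1456 CPM, against 33.5 and 16.2 CPM in the adult negative IP libraries and 27.3 CPM in its own supernatant (log2 5.91 against the adult negative IP, SE 0.44, adjusted p = 0.0214, edgeR). Its spread was taken from the negative IP libraries, and the call was lost without young negative IP 1 or 2 or adult negative IP 1 or 2 (log2 5.49 to 6.51, adjusted p = 0.0609 to 0.142, edgeR). By edgeR, 0 of 49 channel genes tested differed from the adult negative IP, with 1, Hcn2, at an unadjusted p under 0.05, and the call on Gnrh1 was the only one among all genes, 0.00603% of 16586. DESeq2 called 56 genes higher and 154 lower, 0 of them among the 49.

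Hcn2 was at 97.1 CPM in the GFP-positive IP, below all 5 negative IP libraries (104.4 to 195.8 CPM), at log2 -0.79 (SE 0.29, adjusted p = 0.938, edgeR).

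By position alone, 11 of the 49 genes lay below all 5 negative IP libraries and 1, Cacnb1, above them. Of all genes tested, 15.9% lay below and 16.9% above. The 11 were Cacna1a, Cacna1b, Cacna1g, Cacna2d3, Cacnb2, Cacng7, Hcn2, Hcn4, Scn1a, Scn8a and Trpm7. This count has no test behind it, and the share of counts in the 54 genes was 0.132% in this IP, below the negative IP libraries and above the 0.116% of its own supernatant. Neuronal markers summed to 5256 CPM there, above the 3588 to 4323 CPM of the negative IP libraries, which was not tested either.

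Partners of these channels were followed as a list of 55 genes, of which 53 were in the table. Of 50 tested, 18 were higher and 5 lower in the negative IP than in the supernatant, against 15.8% and 16.2% of all genes. The higher ones included the scaffold ankyrin genes Ank2 (log2 1.24) and Ank3 (1.59), the Nalcn complex genes Unc79 (0.81), Unc80 (1.36) and Fam155a (0.71), the plasma membrane calcium pump Atp2b2 (1.65) and the ryanodine receptor Ryr2 (1.33). The lower ones were the calmodulin genes Calm2 (-0.95) and Calm3 (-1.06), Fgf12 (-0.83), Cabp1 (-0.54) and the low Rem1 (-4.76).

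With age, 5 of 50 partners were higher in the adult supernatants and 1 was lower, against 4.16% and 5.6% of all genes. Pex5l, which encodes the HCN auxiliary protein TRIP8b, was among the higher at log2 0.62 (SE 0.08, adjusted p = 0.000664), with Itpr1 (0.64), Atp2b4 (0.47), Unc79 (0.41) and Atp2b2 (0.34), and Calm3 was lower (-0.36). Between the sequencing sets 17 of 49 were higher and 7 lower, against 15.7% and 16.7% of all genes, and in the GFP-positive IP 0 of 50 differed from the adult negative IP by edgeR.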

How the data were processed

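The authors deposited raw counts, whole numbers per gene, for 20 libraries and 19269 genes, from amplified polyA RNA. The submitters' processing notes name HTSeq 0.6.1, TopHat2 2.0.13 with Bowtie2 2.2.1, DESeq2 1.14.1, Cuffdiff 2.1.1, FastQC 0.11.3 and build mm10; their roles, the annotation and the strand setting are not given in the sources used here. Sample titles gave the groups, although the series text names the GFP-positive supernatant in 2 ways. Quasi-likelihood tests (edgeR 4.0.16, R 4.3.3) used trimmed-mean scaling, filterByExpr at a minimum count of 10 and Benjamini-Hochberg adjustment over all genes tested, at 0.05; DESeq2 1.42.0, RLE scaling, no filter, left-out libraries and fits with length or GC trends removed (loess, span 0.5) were alternatives. Scripts were tested on simulated counts. Lengths, exons and GC content came from GENCODE annotation of GRCm38 (98.4% of genes). The rule for named genes was those called, at most 8 per direction, and the 3 of highest mean CPM in each role. It was not carried through in every comparison, and some of those 3 are given only by a range or a count. Beyond the rule, the text names every channel gene called, and genes near a call chosen after their values were seen. Of the genes matching the symbol rule, 4 are not reported here and enter no count, list or figure of channel genes, while all fits used the whole table. The members, lists and tests were chosen with earlier results of these data known. Each IP and its supernatant came from the same pool, which pairs them; their deviations from the group means correlated at 0.15, 0.0982 and 0.263 in the young pools and at 0.0923 in the adult pools, where 2 pools must give the same value. The floor covers counting error only, whereas each SD is between libraries and each SE comes from the fitted spread between libraries.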

Additional observations from a re-analysis of the deposited data

Results flagged for a closer look

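In groups of 5 libraries, 9 of 180 combinations of a channel gene and a group held a highest or lowest library far from the rest, where chance gives about 1 in 20, or 9.0. In the negative IP libraries, Cacna1d was at 34.3 CPM in young pool 1, next to 22.1 CPM. Among negative supernatants, Cacna1h was at 9.71 CPM in adult pool 2, next to 7.09 CPM. Among young supernatants, prior pool 2 was highest for Cacna1b (18.3 CPM, next 10.8), Nalcn (46.0 CPM, next 25.5) and Trpc5 (11.9 CPM, next 7.29), and negative pool 2 was lowest for Cacnb2 (30.9 CPM, next 36.2). Among adult supernatants, negative pool 2 was lowest for Cacnb1 (43.6 CPM, next 67.3) and Cacnb3 (108.7 CPM, next 131.1), and prior pool 3 was highest for Trpc5 (12.5 CPM, next 8.96).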

How the results depend on the processing

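RLE scaling, no count filter, and DESeq2 kept each count of called channel genes within 1.5 times of the reported one, except that DESeq2 called 0 channel genes in place of 1 lower in the IP and 1 in place of 0 in the age by origin test. For the IP, removal of the length trend left 9 higher and 2 lower. Combined with the replicate block it left 11 higher and 1 lower, Cacnb4 (log2 -0.50, adjusted p = 0.0149, edgeR). The medians of pore-forming genes at 1 CPM or more were then 0.30 and 0.17. Over the 32 pore-forming genes tested they were 0.01 and -0.14, beside 0.19 and 0.07 over all genes tested. The replicate block alone left 17 higher and 0 lower, and changed no call on age by fraction. Removal of the GC trend was added after the data were seen. At 1 CPM or more it gave medians of 0.83 for pore-forming and 0.56 for auxiliary genes. Over all tested in each class these were 0.76 and 0.45, while the median of all genes moved from -0.03 to 0.18. Leaving out 1 library gave 10 to 18 genes higher and 0 to 3 lower in the IP, against 9.84% to 17.0% and 11.3% to 18.2% of all genes. Medians at 1 CPM or more were then 0.61 to 0.77 for pore-forming and 0.14 to 0.40 for auxiliary genes. The lowest auxiliary values were 0.14 without adult negative IP 1 and 0.19 without adult negative supernatant 2. There were 3 lower without young negative IP 3 or adult negative IP 2, and 0 lower without any 1 of the 5 supernatants; the cause was not tested. For age, 1 gene was higher without an origin term and 0 in the 5 negative or the 4 prior pools alone, with 1 lower, Cacna1b, in the negative pools; leaving out 1 library gave 1 to 3 higher and 0 lower. For the sets, leaving out 1 pool gave 7 to 12 higher and 7 to 11 lower. Of 18 genes called in the IP, 4 kept the call in all settings, of 2 called with age 0, and of 19 called between sets 13; Gnrh1 kept its call in 5 of 9. Over all genes, DESeq2 called 996 higher with age against 647, 48 and 70 in the age by fraction test against 0, and 56 and 154 in the GFP-positive IP against 1; the 5 negative pools alone gave 123 higher and 133 lower with age, the 4 prior pools 5 and 6, and no origin term 266 and 389. Depth limits the 9 genes under 1 CPM, whose values lie within a few counts of the floor in many libraries.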

Other observations

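Scn2a1, the entry for the forebrain sodium channel gene that the symbol rule did not take in, was at 87.6 to 117.9 CPM in the 5 negative IP libraries and at 44.8 to 55.0 CPM in their supernatants, without overlap (log2 1.03, SE 0.11, adjusted p = 6.99e-05, edgeR). With age it had a log2 difference of 0.15 (SE 0.10, adjusted p = 0.407), and it was higher in the second sequencing set at 0.36 (SE 0.06, adjusted p = 0.000416).

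Gnrh1 was lower in the second sequencing set by a log2 of -0.62 (SE 0.10, adjusted p = 0.000258, edgeR) in the 4 prior supernatants, from 23.6 to 47.6 CPM in the first set and from 13.5 to 39.8 CPM in the second. In adult against young supernatants it had a log2 difference of 0.58 (SE 0.20, adjusted p = 0.0854, edgeR).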
